A study of Mus musculus with 14 samples.

Results

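The TNF and TNF receptor superfamily was taken as every gene symbol in the deposited tables that begins with Tnfrsf or Tnfsf and a digit, which gave 31 of 24537 symbols: 20 receptors and 11 ligands. Founding and related members with other symbols, such as Tnf, Ltb and Cd27, are outside that rule and were read as a list of their own. RNA was sequenced from mouse skin cells sorted by flow cytometry after the hair had been removed by depilation. Regulatory T (Treg) cells, the Foxp3-expressing T cells that restrain immune responses, were taken 24 hours after depilation from 3 GR WT and 5 GR KO samples. Hair follicle stem cells (HFSC), sorted as CD34+ and ITGA6high, were taken on day 4 from 3 GR WT and 3 GR KO samples. GR WT samples came from wild-type mice and GR KO samples from Foxp3YFP-Cre GRfl/fl mice, in which the Foxp3 gene drives the Cre that deletes the floxed glucocorticoid receptor. HFSC of the GR KO group come from mice of that genotype, and this Cre is not designed to act in them. The labels give no age or sex, do not say whether the wild-type mice carried the Cre, and do not say whether a sample is 1 mouse or a pool. The p-values therefore reflect differences among the sequenced samples only, part of which may be technical.

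Ligands of the family are mostly trimeric membrane proteins, and many can be shed. Receptors fall into costimulatory receptors, which recruit TRAF adaptors and switch on NF-kB, death-domain receptors, which can start cell death, and decoy receptors, which bind ligand without signalling. Treg cells are known for high levels of the costimulatory receptors GITR (Tnfrsf18), OX40 (Tnfrsf4) and 4-1BB (Tnfrsf9), and for the TNF receptor TNFR2 (Tnfrsf1b). In skin epithelium, TNFR1 (Tnfrsf1a), the TWEAK receptor Fn14 (Tnfrsf12a), TROY (Tnfrsf19) and EDAR, the receptor of ectodysplasin that acts in hair follicle formation, are the familiar members.

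The libraries held 9.2 to 14.5 M recovered tags for Treg cells and 4.5 to 8.0 M for HFSC. Levels are in TPM, an abundance scaled for depth and transcript length, so they can be compared between genes. The label of each sort was checked against its markers. Ctla4 lay between 3263 and 6442 TPM and Foxp3 between 136.9 and 281.4 TPM in Treg libraries, and Krt15 between 3562 and 7252 TPM and Cd34 between 108.8 and 224.8 TPM in HFSC libraries. Of the 9 T-cell markers with a row, 5 were higher in the Treg GR WT mean and 4 in the GR KO mean. Il2ra was the 1 without overlap in Treg libraries, at 452.9 to 519.5 TPM in GR WT and 317 to 343.8 TPM in GR KO. Nr3c1, which encodes the glucocorticoid receptor, was at 170.5, 233 and 229.7 TPM in the Treg GR WT libraries and at 105.7, 125, 106, 171 and 139 TPM in the GR KO libraries. The GR KO mean was 61.3% of that in GR WT (log2 fold change -0.71, SE 0.17, adjusted p = 0.0722), with GR KO replicate 4 level with the lowest GR WT library. TPM of a whole transcript also counts exons outside a floxed part, and the sources used here do not name that part. In HFSC the GR KO mean of Nr3c1 was 104.9% of the GR WT mean.

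Markers of other cells were not even between the Treg groups. Basal keratinocyte markers summed to 452 to 727 TPM in GR WT and 60.1 to 163 TPM in GR KO libraries, with 10 of 10 higher in the GR WT mean. HFSC markers summed to 323 to 557 TPM against 43.4 to 107 TPM, and fibroblast markers to 112 to 189.9 TPM against 21.9 to 106 TPM. Neutrophil markers summed to 229 to 516 TPM against 168 to 248 TPM, with overlap, and 7 of 8 were higher in the GR WT mean, 5 without overlap. The other neutrophil marker, Il1r2, was at 142.2 to 188.9 TPM in GR WT and 167.2 to 247.6 TPM in GR KO. S100a8 was at 23.7 to 134.2 TPM in GR WT and 0 to 7.54 TPM in GR KO. Of 13 macrophage and monocyte markers, 12 were higher in the GR WT mean, 8 of them without overlap between groups. Their sum overlapped (878 to 1112 TPM and 761 to 1135 TPM), but most of it was Ccr2, the 1 marker higher in the GR KO mean. Ccr2 was at 650.5 to 728.8 TPM in GR WT and 642.4 to 1026 TPM in GR KO libraries. Lyz2 was at 126.9 to 215.2 TPM and 31.5 to 108.4 TPM. In HFSC libraries, sebocyte markers summed to 2834 to 4385 TPM in GR WT and 6126 to 7762 TPM in GR KO, with 8 of 8 higher in GR KO. HFSC markers summed to 18800 to 23770 TPM in GR WT and 14360 to 17500 TPM in GR KO (8 of 11 lower in GR KO), and basal keratinocyte markers to 24250 to 29200 TPM and 18490 to 21930 TPM (9 of 10 lower). T-cell markers summed to 12.0 to 14.5 TPM and 15.9 to 18.4 TPM there, with 5 of 9 higher in the GR WT mean and 4 in the GR KO mean. Among them, only Ikzf2 was higher in GR KO without overlap, at 3.94 to 7.83 TPM in GR WT and 10.97 to 12.33 TPM in GR KO. Cd4 was lower without overlap, at 0.294 to 0.891 TPM and 0.133 to 0.22 TPM. B and plasma cell markers summed to at most 0.385 TPM in an HFSC library, and NK and CD8 T-cell markers to at most 0.519 TPM. In Treg libraries, B and plasma cell markers summed to 9.06 to 17.1 TPM in GR WT and 6.74 to 20.8 TPM in GR KO. Of these 6 markers, 4 were higher in the GR WT mean. NK and CD8 T-cell markers summed there to 21.7 to 30.0 TPM and 18.8 to 66.9 TPM, with 6 of 7 higher in the GR KO mean. These sums stand beside every GR KO result below, and their part in those results was not tested. In bulk samples, fewer cells of a type and less RNA per cell cannot be told apart.

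Of the 9 members on chromosome 4, Tnfrsf4, Tnfrsf18 and Tnfrsf9 were the 3 most abundant family transcripts in Treg cells. In the mm10 build, Tnfrsf4 lies at chr4:156013695-156016589 and Tnfrsf18 at chr4:156026342-156028891, both on the plus strand, 9.753 kb apart with 1 gene between them. Tnfrsf9 lies at chr4:150927999-150946102 and Tnfrsf1a, the most abundant member in HFSC, at chr6:125349723-125362483, both on the plus strand. Tnfrsf18 was also a leading member in HFSC, with 17.5% of the family sum in GR WT libraries. The 250 bases before a RefSeq start of each of these 4 genes are shown, since 3 lead in Treg cells and Tnfrsf1a leads in HFSC. They are RefSeq promoters of the GRCm38.p6 assembly, plus strand, 5′ to 3′, in lower case, with capitals for matches to the kappaB consensus (the site read by NF-kB), the AP-1 motif TGANTCA or the glucocorticoid receptor half-site AGAACA on either strand.
Tnfrsf4 (chr4:156013445-156013694): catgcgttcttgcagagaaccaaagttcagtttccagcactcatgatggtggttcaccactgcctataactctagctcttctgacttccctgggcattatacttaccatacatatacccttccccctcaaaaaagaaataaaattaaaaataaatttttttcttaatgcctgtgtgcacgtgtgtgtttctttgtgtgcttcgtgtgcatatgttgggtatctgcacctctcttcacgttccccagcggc
Tnfrsf18 (chr4:156026072-156026321): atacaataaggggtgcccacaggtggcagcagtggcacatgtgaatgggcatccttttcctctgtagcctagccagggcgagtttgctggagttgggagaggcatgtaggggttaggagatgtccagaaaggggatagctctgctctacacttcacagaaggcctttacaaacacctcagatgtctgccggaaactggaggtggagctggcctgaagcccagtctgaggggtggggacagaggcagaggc
Tnfrsf9 (chr4:150927749-150927998): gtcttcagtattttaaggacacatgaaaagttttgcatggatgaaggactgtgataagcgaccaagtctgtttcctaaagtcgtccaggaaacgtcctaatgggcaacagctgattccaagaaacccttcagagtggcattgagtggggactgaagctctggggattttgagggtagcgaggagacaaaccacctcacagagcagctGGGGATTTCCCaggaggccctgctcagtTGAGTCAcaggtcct
Tnfrsf1a (chr6:125349473-125349722): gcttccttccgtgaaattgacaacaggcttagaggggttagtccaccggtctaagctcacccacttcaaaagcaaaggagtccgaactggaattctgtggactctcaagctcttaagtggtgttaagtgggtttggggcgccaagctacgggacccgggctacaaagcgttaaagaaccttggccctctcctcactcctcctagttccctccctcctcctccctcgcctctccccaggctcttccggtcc

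Among these 4, only the Tnfrsf9 window held a match: a kappaB match whose first base is 43 bases before the start, and an AP-1 match that begins 15 bases before it. Another RefSeq promoter of Tnfrsf9, with its start 7844 bases from that of the counted transcript, held neither match. The Tnfrsf18 window belongs to a RefSeq start 20 bases from that of the counted transcript. RefSeq promoters were found for 24 of the 31 members, 28 promoters in all, and the motifs were counted in windows of 300 bases (250 before and 50 after the start). The kappaB consensus was in 3 of the 28 (Tnfrsf8, Tnfrsf9 and Tnfrsf25) and in 6.925% of all 32851 promoters. The AP-1 motif was in 6 of 28, of Tnfrsf8, Tnfrsf9, Tnfsf13, Tnfsf13b and Tnfsf14, and in 7.81% of all. Tnfsf13b is counted there through both of its windows, which overlap and may hold the same site. AGAACA was in 1 of 28, of Tnfrsf25, against 18.97% of all, and the GC box GGGCGG was in 12 of 28 against 35.66%. Matching letters in a window are a description and not a measured binding site.

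Treg cells carried the family mainly as costimulatory receptors. In GR WT libraries the members summed to 5304 TPM, of which 5205 TPM were receptors and 99.1 TPM ligands, and the 4 highest members made up 94.1% of the sum. Tnfrsf4 led with 1958 ± 177.5 TPM (SD, n = 3), followed by Tnfrsf18 with 1600 ± 127 TPM, Tnfrsf9 with 1034 ± 85.5 TPM and Tnfrsf1b with 402 ± 70.05 TPM. The GR WT ranges of these neighbours in rank did not overlap. The next members were far lower: Tnfrsf25 (DR3, a death-domain receptor that costimulates T cells) at 56.7 ± 10.03 TPM, Tnfrsf10b (the mouse TRAIL receptor) at 41.2 ± 7.70 TPM and the 4-1BB ligand Tnfsf9 at 38.8 ± 7.57 TPM, whose ranges overlapped from Tnfrsf10b on.

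HFSC carried a smaller and different share. Their GR WT libraries summed to 517.5 TPM over the members, of which ligands made up 6.82 TPM. Tnfrsf1a led with 231 ± 7.44 TPM (SD, n = 3), then Tnfrsf12a with 137.7 ± 5.05 TPM and Tnfrsf18 with 90.4 ± 15.7 TPM, and these 3 made up 88.8% of the sum. Tnfrsf4 at 15.5 ± 4.46 TPM and Tnfrsf21 (DR6, a death-domain receptor) at 10.3 ± 3.58 TPM followed, with overlapping ranges. Tnfsf9 was the only ligand with a GR WT mean of at least 1 TPM in HFSC, at 6.20 ± 1.54 TPM.

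**Figure D1:**
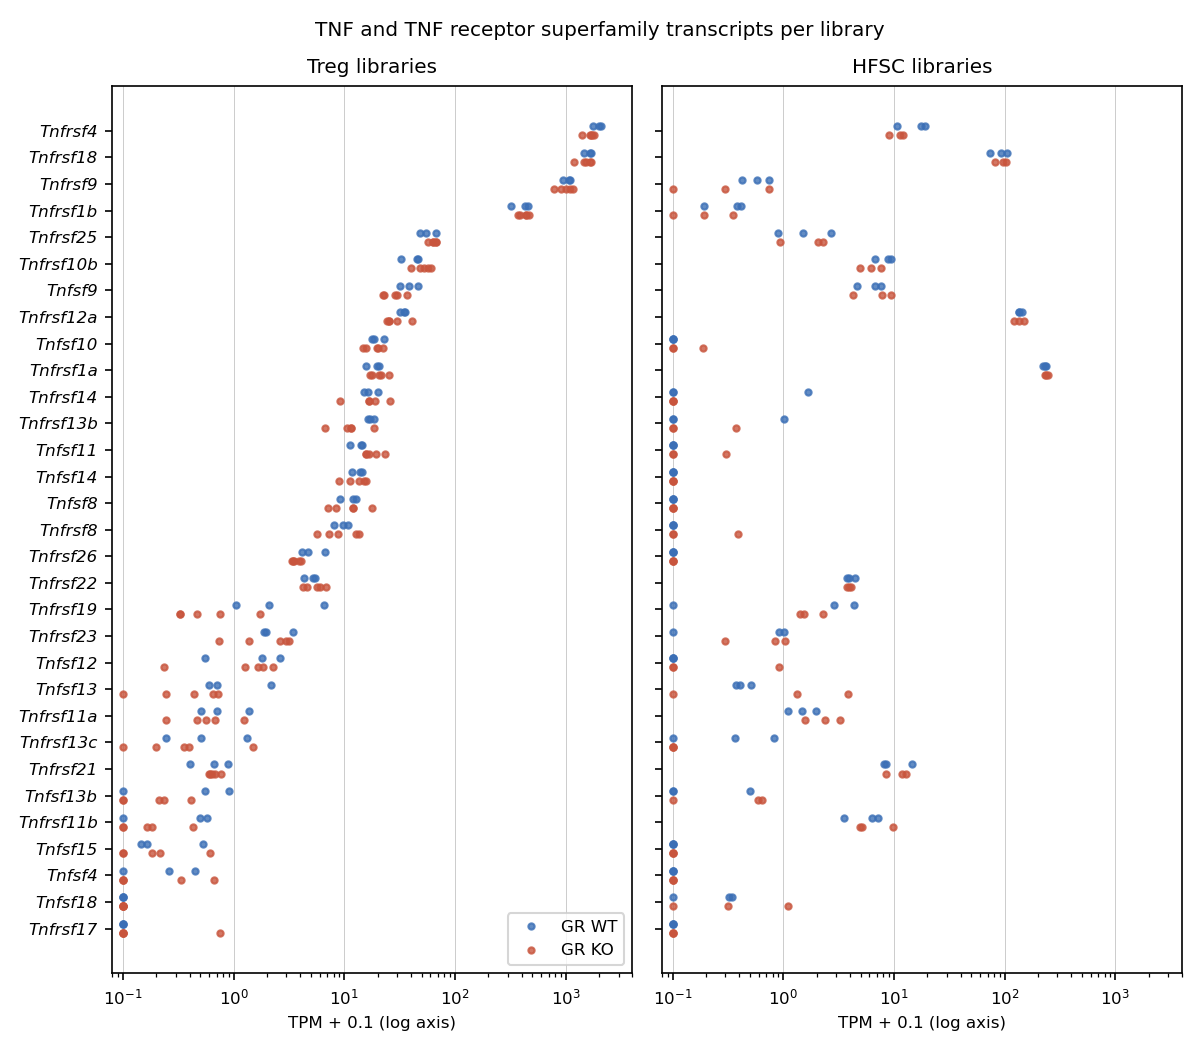
Level of each of the 31 members in every library, as TPM + 0.1 on a log axis, for Treg (left) and HFSC (right) with GR WT in blue and GR KO in red; a point at 0.1 is a value of 0. Members are ordered by their Treg GR WT mean. Tnfrsf4, Tnfrsf18, Tnfrsf9 and Tnfrsf1b stand alone at the top in Treg cells, and Tnfrsf1a, Tnfrsf12a and Tnfrsf18 in HFSC.

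The tables were made separately, and cell type, day and table cannot be told apart, so levels set across them are descriptive and carry no test. Of the 24 members with a mean of at least 1 TPM in a table, 15 had every Treg library above every HFSC library (62.5%), against 19.9% of all 13710 genes with such a mean. These were 10 receptors and 5 ligands. Another 4, all receptors, had every HFSC library above every Treg library (16.7%, against 42.7% of all genes): Tnfrsf1a, Tnfrsf12a, Tnfrsf21 and the osteoprotegerin gene Tnfrsf11b, which encodes a soluble decoy for the ligand RANKL. A member present in 1 cell type only passes the 1 TPM minimum through that cell type, so these shares describe the members and do not test them.

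Of the 4 leading receptors of Treg cells, Tnfrsf18 and Tnfrsf4 were above 1 TPM in every HFSC library, and Tnfrsf9 and Tnfrsf1b were below 1 TPM in all of them. Tnfrsf18 lay between 74.1 and 105 TPM in HFSC libraries, 5.94% of its Treg mean over all libraries, and Tnfrsf4 between 8.96 and 18.9 TPM, 0.743%. Tnfrsf9 reached 0.038% and Tnfrsf1b 0.0413% of their Treg means. Of the 9 genes with a row in the T-cell list, Ikzf2 was at 4.62% and Lck at 1.46% of their Treg means, Cd3e at 0.134%, Cd4 at 0.0893%, Il2ra at 0.0852%, Foxp3 at 0.0615%, Ctla4 at 0.0146%, Cd3g at 0.011% and Cd2 at 0.00737%. Tnfrsf18 was above all 9 of these percentages, and Tnfrsf4 above all but Ikzf2 and Lck. The ratio of Tnfrsf4 to Tnfrsf18 TPM was 1.02 to 1.25 in Treg libraries and 0.11 to 0.206 in HFSC libraries. The part of Treg RNA in these HFSC values was not tested.

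Tnfrsf1a and Tnfrsf12a, the leading members in HFSC, were also found in every Treg library. In GR WT Treg libraries Tnfrsf12a was at 24.7% and Tnfrsf1a at 7.93% of the HFSC mean, while Krt5, Krt14 and Krt15 were at 1.01%, 2.26% and 3.42%. In GR KO Treg libraries, where these keratins were at 0.117%, 0.303% and 0.141%, Tnfrsf12a was at 21.3% and Tnfrsf1a at 8.64%. The part of keratinocyte RNA in the Treg values was not tested. Tnfrsf12a overlaps Hcfc1r1 on the opposite strand. The sources used here do not say whether counting used the strand, and reads of that pair may be shared.

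Tnfrsf19, which encodes TROY, a receptor known from hair follicle progenitors, did not set the HFSC libraries apart. It was at 0, 2.78 and 4.28 TPM in GR WT and at 2.19, 1.33 and 1.44 TPM in GR KO HFSC libraries. In Treg libraries it was at 1.99, 0.95 and 6.45 TPM in GR WT and at 1.63, 0.652, 0.226, 0.37 and 0.229 TPM in GR KO. The ranges of the cell types overlapped, and the highest value of all 14 libraries was in a Treg library. The other 3 marker receptors, Tnfrsf18, Tnfrsf4 and Tnfrsf9, were highest in Treg cells in every library.

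In Treg cells some receptors stood far above their ligands, while other pairs had close levels. In GR WT Treg libraries the GITR ligand Tnfsf18 was at 0 and the OX40 ligand Tnfsf4 at a mean of 0.167 TPM, beside 1600 TPM of Tnfrsf18 and 1958 TPM of Tnfrsf4; 3 tags, the limit of detection used here, correspond to 0.134 to 0.201 TPM for Tnfsf18 in Treg libraries. HFSC also held no more than 0.997 TPM of Tnfsf18 in any library and no Tnfsf4. Tnfsf9 was at 38.8 TPM in Treg cells beside 1034 TPM of its receptor Tnfrsf9. The CD30 ligand Tnfsf8 was at 11.1 TPM in Treg cells beside 9.42 TPM of Tnfrsf8, and Tnfsf14 at 13.1 TPM beside 17.1 TPM of Tnfrsf14. Tnf itself was at 78.95 TPM in Treg cells and 0.575 TPM in HFSC, while its receptor Tnfrsf1a was at 18.6 TPM in Treg cells and 231 TPM in HFSC. For TWEAK (Tnfsf12) the ligand was at 1.56 TPM in Treg cells and 0 in HFSC, beside 137.7 TPM of Tnfrsf12a in HFSC. RANKL (Tnfsf11) was at 13.1 TPM in Treg cells, its signalling receptor Tnfrsf11a at 1.41 TPM and its decoy Tnfrsf11b at 5.62 TPM in HFSC. TRAIL (Tnfsf10) was at 19.5 TPM in Treg cells and its receptor Tnfrsf10b at 41.2 TPM there and 8.21 TPM in HFSC. RNA of a ligand and its receptor says nothing of contact between the cells.

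**Figure D2:**
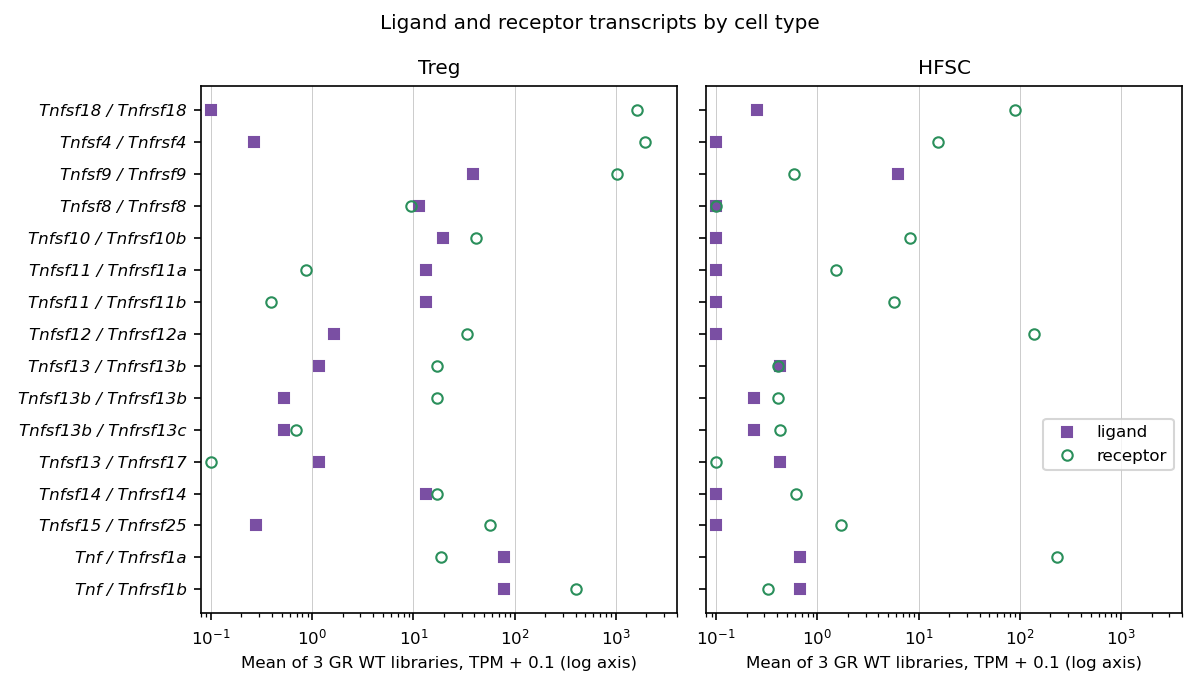
Mean TPM + 0.1 (log axis) over the 3 GR WT libraries for each ligand (filled square) and receptor (open circle) pair, in Treg cells (left) and HFSC (right); 0.1 stands for 0. Tnf is high in Treg cells at 78.95 TPM and Tnfrsf1a in HFSC at 231 TPM, while Tnfsf18 and Tnfsf4 are near 0 in both.

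The question of the genotype comparison is whether loss of the glucocorticoid receptor in Treg cells goes with other levels of these genes, first in the Treg cells. No member passed the test. Of 21 members with a mean of at least 1 TPM in Treg libraries (15 receptors and 6 ligands), limma called 0 at an adjusted p of 0.05, against 1.51% of all 11579 genes tested (175 genes). voom on recovered tags also called 0 of them, against 2.18% of all genes. At an unadjusted p of 0.05, 5 of the 21 members passed, as did 1630 of all 11579 genes tested. The median log2 fold change was -0.07 over the tested members and -0.04 over all genes, with 6 members positive and 15 negative. The groups did not overlap for 2 members, Tnfsf11 and Tnfrsf26, against 8.52% of all genes tested.

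**Figure D3:**
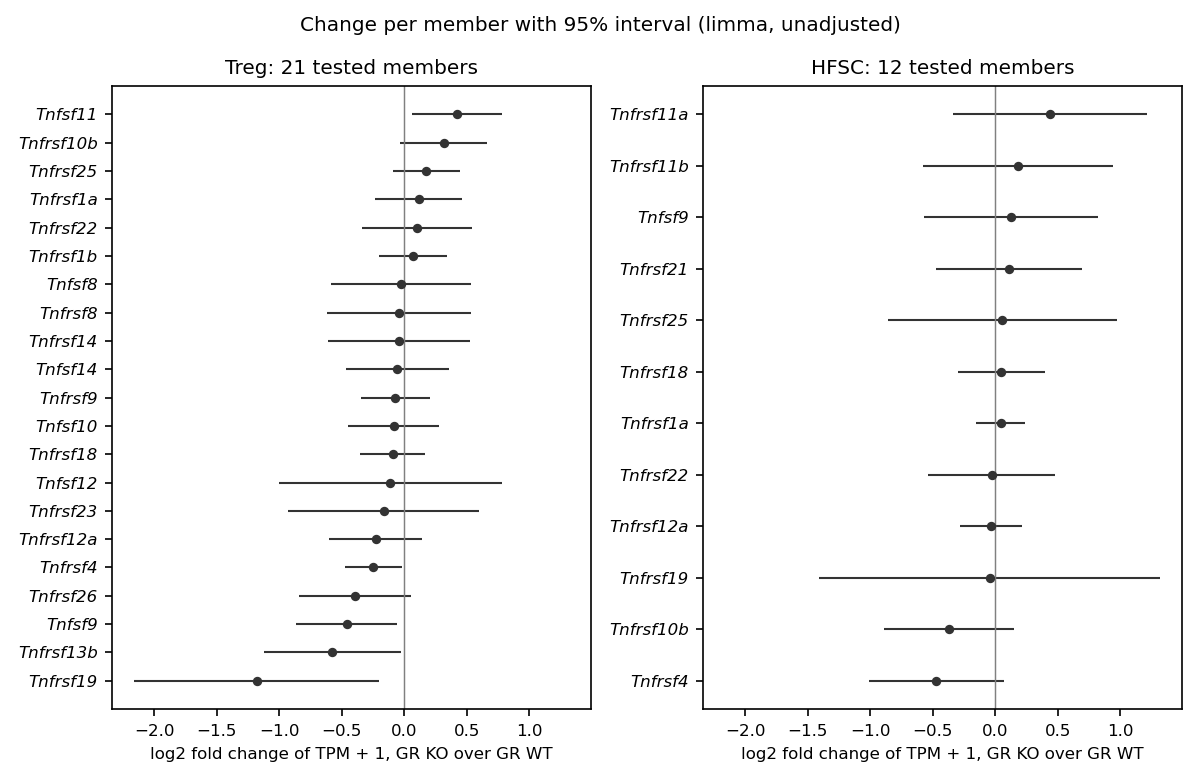
Log2 fold change of TPM + 1, GR KO over GR WT, with unadjusted 95% confidence intervals from limma, for the 21 members tested in Treg cells (left) and the 12 tested in HFSC (right). The lowest adjusted p is 0.274 in Treg cells and 0.36 in HFSC.

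For 3 of the 4 leading receptors of Treg cells, the genotypes overlapped with no difference beyond the spread between libraries. Tnfrsf18 was at 1679, 1668 and 1454 TPM in GR WT and at 1648, 1689.9, 1540, 1189 and 1477 TPM in GR KO. The groups overlapped throughout, with GR KO replicate 4 lowest of all. The log2 fold change was -0.09 (SE 0.12, adjusted p = 0.785), and the 95% interval of the fold ran from 0.782 to 1.12. Tnfrsf9 was at 936, 1070.3 and 1095 TPM in GR WT and at 1156, 1101, 789, 910.1 and 999.9 TPM in GR KO. GR KO libraries lay on both sides of the GR WT range, with a log2 fold change of -0.07 (SE 0.13, adjusted p = 0.853) and a fold interval of 0.787 to 1.15. Tnfrsf1b, which binds TNF and is known to sustain Treg cells, was at 323, 427 and 456 TPM in GR WT and at 389, 463, 370.45, 437 and 441 TPM in GR KO. The groups overlapped, and the interval of the fold ran from 0.871 to 1.27 (adjusted p = 0.843).

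Tnfrsf4 was the one of these 4 with an interval off 0, by a small margin. It was at 2102, 2012 and 1759 TPM in GR WT and at 1788, 1728, 1652, 1398 and 1688 TPM in GR KO. Only GR KO replicate 1 lay above the lowest GR WT library, and the GR KO mean was 84.3% of that in GR WT. Tnfrsf4 had a log2 fold change of -0.25 (SE 0.10, 95% interval -0.47 to -0.02), with an adjusted p of 0.322 over all genes. An exact two-sided permutation test of the same values gave p = 0.0536, or 0.214 adjusted over the 4 marker receptors tested, where 56 assignments allow a p no lower than 0.0179. With each library left out, the exact p ran from 0.0286 to 0.19. It was 0.0286 without GR KO replicate 1 and 0.0476 without GR WT replicate 3. The groups overlap only through these libraries, so leaving out either one separates them. The exact p is then the lowest that the remaining libraries allow, and no conclusion is drawn from it. Exact permutation p was 0.589 for Tnfrsf18 and 0.643 for Tnfrsf9 (adjusted over the 4, 0.857 for both).

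**Figure D4:**
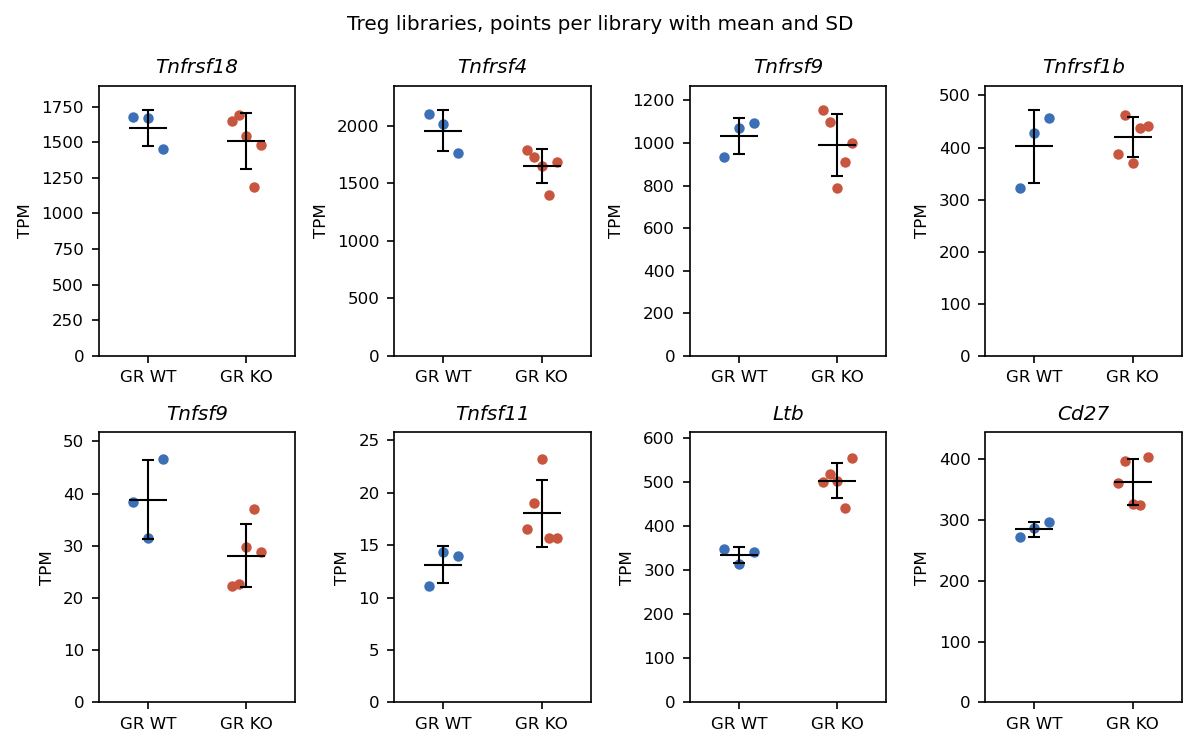
TPM per Treg library (points) with mean and SD (bars) in 3 GR WT and 5 GR KO libraries for 6 members and for Ltb and Cd27. GR KO libraries of Ltb lie between 442 and 554 TPM and GR WT libraries between 313 and 347 TPM, without overlap; Tnfrsf18, Tnfrsf9 and Tnfrsf1b overlap.

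Death-domain and other receptors at lower levels also stayed short of the test. Tnfrsf25 was at 48.1, 67.8 and 54.3 TPM in GR WT and at 63.0, 67.3, 67.3, 63.5 and 57.5 TPM in GR KO (log2 fold change 0.18, adjusted p = 0.549). Tnfrsf10b was at 32.3, 45.9 and 45.5 TPM in GR WT and at 47.8, 60.3, 40.1, 56.4 and 52.6 TPM in GR KO (log2 fold change 0.32, adjusted p = 0.404). Both overlapped, Tnfrsf10b by 1 GR KO library. Tnfrsf1a was at 19.7, 15.6 and 20.6 TPM in GR WT and at 20.4, 17.6, 25.0, 21.4 and 17.0 TPM in GR KO (adjusted p = 0.802). Tnfrsf12a was at 35.0, 34.1 and 31.8 TPM in GR WT and at 41.1, 25.5, 29.8, 25.2 and 24.0 TPM in GR KO. Here 4 of 5 GR KO libraries were below all GR WT libraries and GR KO replicate 1 was above them (log2 fold change -0.23, adjusted p = 0.578).

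Tnfrsf13b, which encodes TACI, a receptor of BAFF and APRIL best known on B cells, was at 16.1, 18.3 and 16.8 TPM in GR WT and at 6.52, 18.5, 11.5, 10.5 and 11.4 TPM in GR KO. All but GR KO replicate 2 lay below GR WT, with a log2 fold change of -0.58 (SE 0.25, adjusted p = 0.332). Tnfrsf14, which encodes HVEM, was at 16.4, 19.9 and 15.03 TPM in GR WT and at 25.6, 18.9, 9.02, 16.5 and 16.6 TPM in GR KO. Its GR KO libraries spread on both sides of GR WT (adjusted p = 0.962). Tnfrsf19, with the library values given above, had the lowest adjusted p of the members in Treg cells: 0.274, at a log2 fold change of -1.18 (SE 0.45). Its highest library, GR WT replicate 3, was also the highest in Krt15, at 242.7 TPM. The other GR WT libraries had 122 and 126.3 TPM of Krt15, and GR KO libraries 1.38 to 20.2 TPM. That library was also the highest in Col3a1, at 45.5 TPM, and C1qa, at 23.2 TPM, while S100a8 was highest in GR WT replicate 1, at 134.2 TPM. In GR WT Treg libraries Tnfrsf19 was at 156% of its HFSC mean, and Krt15 at 3.42%. The part of other cells in the Tnfrsf19 values was not tested.

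Tnfrsf26 was the only receptor without overlap between the Treg groups. It belongs with Tnfrsf22 and Tnfrsf23 to a cluster of mouse decoy-type receptors on chromosome 7, so reads may be split among these close copies. It was at 4.64, 4.04 and 6.55 TPM in GR WT and at 3.44, 3.36, 3.80, 3.96 and 3.29 TPM in GR KO, with a log2 fold change of -0.39 (SE 0.20, adjusted p = 0.423). Tnfrsf22 and Tnfrsf23 overlapped, at 4.14 to 6.73 TPM and 0.64 to 3.34 TPM over all Treg libraries. Tnfrsf8 (CD30) overlapped as well, at 8.01 to 10.7 TPM in GR WT and 5.55 to 13.6 TPM in GR KO.

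Among the ligands, Tnfsf11 and Tnfsf9 had unadjusted p-values under 0.05, in opposite directions. Tnfsf11, which encodes RANKL, was at 11.1, 14.4 and 13.9 TPM in GR WT and at 16.5, 19.0, 23.2, 15.7 and 15.7 TPM in GR KO. All 5 GR KO libraries were above all GR WT libraries, with a log2 fold change of 0.42 (SE 0.16, adjusted p = 0.292). Tnfsf9, the 4-1BB ligand, was at 38.3, 31.5 and 46.6 TPM in GR WT and at 22.3, 22.6, 29.7, 36.9 and 28.9 TPM in GR KO. Only GR KO replicate 4 reached into the GR WT range, with a log2 fold change of -0.46 (SE 0.18, adjusted p = 0.303). Tnfsf9 overlaps the predicted gene Gm11110 on the opposite strand, so reads of the pair may be shared.

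The other ligands of Treg cells overlapped between genotypes. Tnfsf10 was at 18.4, 17.6 and 22.5 TPM in GR WT and at 20.03, 19.7, 14.6, 22.2 and 15.6 TPM in GR KO (adjusted p = 0.864). Tnfsf14, which encodes LIGHT, a ligand of HVEM, was at 13.6, 14.2 and 11.6 TPM in GR WT and at 11.2, 14.9, 15.5, 13.3 and 8.89 TPM in GR KO (adjusted p = 0.93). The CD30 ligand Tnfsf8 was at 9.05, 11.8 and 12.6 TPM in GR WT and at 8.37, 11.7, 17.8, 11.9 and 7.04 TPM in GR KO (adjusted p = 0.979). In all 3 the GR KO libraries lay on both sides of the GR WT mean. Tnfsf12 was at 0.135 to 2.51 TPM over all Treg libraries. Tnfsf12 and Tnfsf13 both overlap the read-through gene Tnfsfm13 on the same strand, so their reads cannot be fully told apart. The remaining 10 members were below a mean of 1 TPM in Treg libraries and were not tested; the highest single value among them was 2.08 TPM (Tnfsf13, GR WT replicate 3).

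In HFSC, 12 members had a mean of at least 1 TPM (11 receptors and 1 ligand), and limma called 0 of them, against 0.176% of all 12493 genes (22 genes). voom also called 0. At an unadjusted p of 0.05, 0 of the 12 passed, against 2074 of all 12493 genes tested. None of the 12 was without overlap between groups, against 23.5% of all genes. The median log2 fold change was 0.05 over the members and -0.02 over all genes.

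The 2 leading HFSC receptors had the narrowest intervals. Tnfrsf1a was at 223, 237 and 233 TPM in GR WT and at 233, 244 and 238 TPM in GR KO, with a fold interval of 0.899 to 1.18 (adjusted p = 0.841). Tnfrsf12a was at 135, 143.5 and 134 TPM in GR WT and at 149.5, 134.5 and 121 TPM in GR KO, with a fold interval of 0.825 to 1.16 (adjusted p = 0.903). Changes beyond these bounds lie outside the unadjusted 95% intervals of these libraries. Tnfrsf18 was at 91.7, 105 and 74.1 TPM in GR WT and at 102, 80.9 and 95.7 TPM in GR KO (fold interval 0.812 to 1.32, adjusted p = 0.899).

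Tnfrsf4 had the lowest adjusted p of the members in HFSC. It was at 18.9, 17.3 and 10.5 TPM in GR WT and at 11.3, 8.96 and 11.9 TPM in GR KO, so GR WT replicate 3 fell among the GR KO libraries. The log2 fold change was -0.47 (SE 0.23, adjusted p = 0.36), on 50 to 78 recovered tags per library. Tnfrsf21 was at 7.97, 14.4 and 8.45 TPM in GR WT and at 11.8, 8.4 and 12.6 TPM in GR KO, with overlap (adjusted p = 0.863). Tnfrsf19 had a log2 fold change of -0.05 with a 95% interval of -1.41 to 1.32 (adjusted p = 0.98). Its exact permutation p was 1, where 3 against 3 libraries allow no p below 0.1. Its GR WT libraries ran from 0 to 76 recovered tags, so this comparison bounds little.

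Of the other HFSC members tested, Tnfrsf10b was at 6.66 to 9.32 TPM in GR WT and 4.78 to 7.6 TPM in GR KO, and Tnfrsf11b at 3.42 to 7.14 TPM and 4.83 to 9.79 TPM. Tnfrsf11a, the RANKL receptor, was at 0.995 to 1.88 TPM and 1.47 to 3.16 TPM. Tnfsf9 was at 4.49 to 7.47 TPM and 4.19 to 9.23 TPM, and Tnfrsf22 at 3.63 to 4.35 TPM and 3.64 to 4.02 TPM. Tnfrsf25 lay between 0.793 and 2.57 TPM over all HFSC libraries. All overlapped between genotypes. The other 19 members were below a mean of 1 TPM over the HFSC libraries and were not tested. The highest single value among them was 3.74 TPM (Tnfsf13, GR KO replicate 3). Tnfsf13 was at 0.272 to 0.412 TPM in GR WT and at 0, 1.23 and 3.74 TPM in GR KO. Of these 19 members, 6 were at 0 in every HFSC library: Tnfrsf17, Tnfrsf26, Tnfsf4, Tnfsf8, Tnfsf14 and Tnfsf15. For Tnfrsf17, 3 tags correspond to 0.764 to 1.28 TPM in HFSC libraries, so a level below that would not be detectable at this depth.

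**Figure D5:**
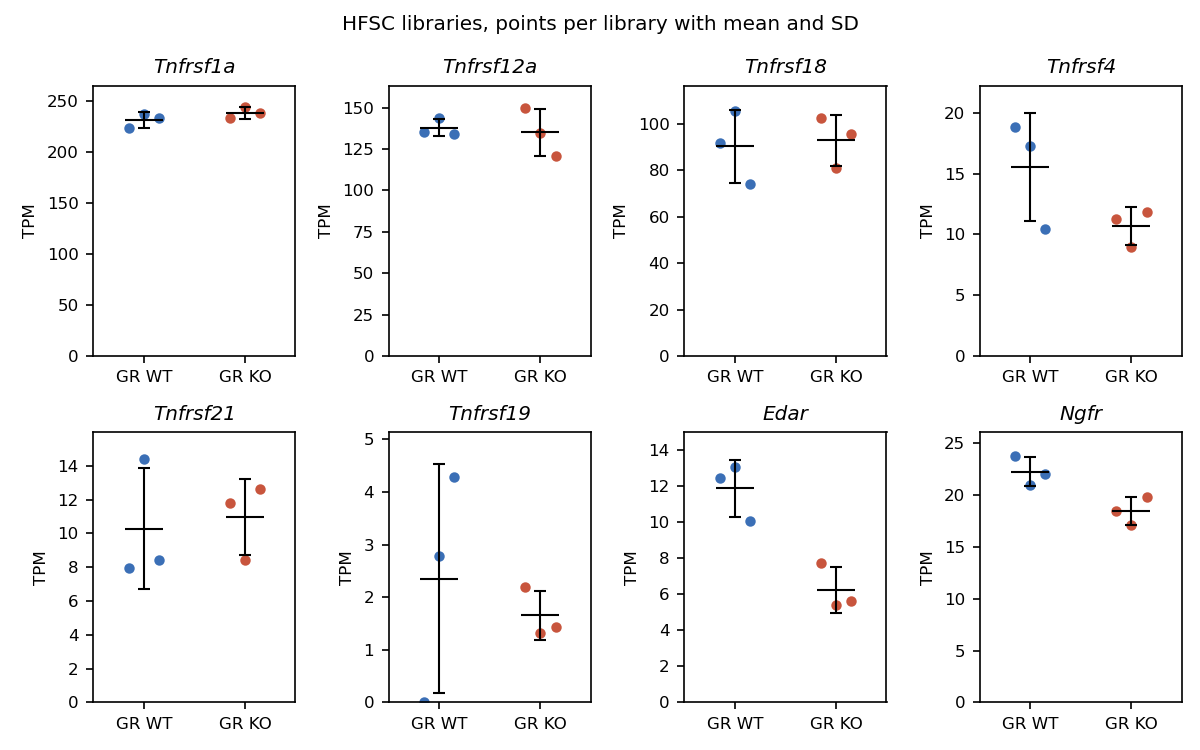
TPM per HFSC library (points) with mean and SD (bars) in 3 GR WT and 3 GR KO libraries for 6 members and for Edar and Ngfr. Tnfrsf1a stays between 223 and 244 TPM in all 6 libraries, and Edar lies at 10.1 to 13.0 TPM in GR WT and 5.38 to 7.71 TPM in GR KO.

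Genes around the family were read from 7 lists with 58 genes: ligands and receptors of the family with other symbols, TRAF adaptors, death-domain adaptors, IAP and ubiquitin regulators, kinases and NF-kB effectors, and ligand shedding. In Treg cells 53 were tested, and 1 was called higher and 0 lower in GR KO, close to the 1.51% of all genes. The gene called was Ltb, which encodes lymphotoxin beta, the membrane anchor of the lymphotoxin heterotrimer. It was at 347, 313 and 342 TPM in GR WT and at 500.3, 517, 501, 442 and 554 TPM in GR KO. All 5 GR KO libraries were above all GR WT libraries. Ltb rose by 0.59 on the log2 scale (SE 0.09, adjusted p = 0.009), to 150.5% of the GR WT mean.

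The next pathway genes by p in Treg cells did not pass after adjustment. Cd27, a costimulatory receptor of the family, was at 272, 286 and 296 TPM in GR WT and at 359.6, 397, 326, 324 and 404 TPM in GR KO, without overlap (log2 fold change 0.34, SE 0.10, adjusted p = 0.152). Traf4, a TRAF adaptor, was at 83.5, 106 and 96.1 TPM in GR WT and at 70.1, 78.1, 67.0, 57.8 and 80.6 TPM in GR KO, also without overlap (log2 fold change -0.43, SE 0.13, adjusted p = 0.166). Tradd, the adaptor of TNFR1, was at 15.7, 15.5 and 12.1 TPM in GR WT and at 16.0, 20.6, 19.2, 19.7 and 22.2 TPM in GR KO (log2 fold change 0.41, SE 0.15, adjusted p = 0.247). GR KO libraries were the higher ones for Cd27 and Tradd and the lower ones for Traf4. All 5 tested ligands with other symbols, Ltb among them, had positive log2 fold changes, with a median of 0.28. Only 1 of these 5 had an unadjusted p under 0.05, and Ltb, Tnf and Lta lie close together on chromosome 17. The 6 tested Tnfsf ligands went mostly the other way, with 1 positive and 5 negative and a median of -0.07. Of the 5 tested receptors with other symbols, 2 were positive and 3 negative, with a median of -0.25. Of the 14 kinases and NF-kB effectors 3 were positive and 11 negative, with a median of -0.11, and 0 were called. Over all genes tested, 5119 were positive and 6460 negative, with a median of -0.04.

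In HFSC 49 of the 58 pathway genes were tested and limma called 0, with 1 at an unadjusted p of 0.05. That gene was Edar, at 12.5, 13.0 and 10.1 TPM in GR WT and at 7.71, 5.38 and 5.60 TPM in GR KO. All 3 GR KO libraries were below all GR WT libraries, with a log2 fold change of -0.84 (SE 0.20, adjusted p = 0.116). voom on recovered tags, which called 3.87% of all 12493 genes, called Edar lower, with a log2 fold change of -0.98 (adjusted p = 0.0245), and no other pathway gene. Ngfr, which encodes the p75 neurotrophin receptor of this family, was at 23.7, 20.9 and 22.0 TPM in GR WT and at 18.4, 17.1 and 19.8 TPM in GR KO, without overlap (log2 fold change -0.26, adjusted p = 0.377). Nfkbib, an inhibitor of NF-kB, was at 58.6, 43.9 and 36.2 TPM in GR WT and at 35.6, 32.3 and 36.8 TPM in GR KO (adjusted p = 0.337). The NF-kB subunit gene Rel was at 3.60, 9.68 and 8.01 TPM in GR WT and at 12.9, 12.2 and 8.24 TPM in GR KO (adjusted p = 0.371). Nfkbib and Rel overlapped between genotypes. Sebocyte markers (8 of 8 higher in GR KO), HFSC markers (8 of 11 lower) and basal keratinocyte markers (9 of 10 lower) moved with these HFSC values, and their part was not tested.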

How the data were processed

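TPM per gene and library was deposited by the authors in 1 table per cell type, with 1 RefSeq transcript and its length for each symbol. FastQC, Trim Galore, STAR, HOMER and mm10 are named in the submitters' processing notes; the sources used here give no versions, settings or use of the strand. The stranded kit is per the labels' protocols. HFSC column names have an unexplained prefix, so their samples were found from the table, the genotype and the replicate number.

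The family members, pathway lists and tests were chosen with earlier results of these data known. Each table was fitted whole with limma 3.58.1 under R 4.3.3, using log2(TPM + 1), a trended prior, genes averaging 1 TPM or more, and Benjamini-Hochberg adjusted p (two-sided, 0.05). Fold changes are on the log2(TPM + 1) scale, which understates the change of low genes. The 4 marker receptors were also tested by exact permutation of the libraries. Named in full were the 4 marker receptors, members with a group mean of at least 10 TPM, members without overlap, called genes and the 4 pathway genes with the smallest p per table.

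Multiplied by transcript length, 100% of low TPM values were whole numbers of tags to within 0.1, so tags were recovered and also fitted with voom, an alternative chosen after seeing the data. Tags are not independent molecules, so detection limits of 3 tags cover counting error only. Fits were tested on simulated data. Alternatives were the pseudocount, the low-value filter, scaling, the prior, a replicate block and leaving out each library. Cell type markers came from 13 lists, of which 1 entry (Trac) had no row. Promoters are RefSeq, assembly GRCm38.p6; no protein sequence was used here.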

Additional observations from a re-analysis of the deposited data

How the results depend on the processing

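The count of called family members was 0 in both cell types under every alternative run, each left-out library included. The count of pathway genes called in Treg cells was 1 (Ltb) throughout, except 0 with the replicate number as a block (Ltb log2 fold change 0.599, adjusted p = 0.076); in HFSC it was 0, except 1 with voom (Edar, -0.975). Over all genes, calls went from 175 to 78 in Treg cells and from 22 to 66 in HFSC with the replicate block, and HFSC calls ran from 0 (without GR KO replicate 3) to 483 (voom), 2 without a low-value filter; without GR WT replicate 1 or 3, Treg calls were 107 and 84. Same-numbered libraries correlated by 0.17, 0.0873 and -0.117 in Treg cells and by 0.0156, 0.0619 and -0.042 in HFSC, so the numbers were not taken to pair samples.

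Signs that turned all belonged to values short of the test. In Treg cells, Tnfrsf14 was 0.00249 with median ratio scaling, 0.0289 with quantile scaling and 0.0111 with voom, and Tnfsf8 was 0.0204, 0.0761 and, with the replicate block, 0.12. Tnfsf14 was 0.0409 with quantile scaling and 0.0675 with the block, and Tnfrsf18 0.0253 with the block. In HFSC, Tnfrsf19 was 0.667 with a pseudocount of 0.1 (exact permutation p = 1) and 0.551 with voom, and Tnfrsf1a -0.0124 with voom. With a library left out, Treg log2 fold changes ran from -0.195 to 0.157 for Tnfrsf14, -0.00228 to 0.189 for Tnfrsf1a, -0.0773 to 0.171 for Tnfrsf1b, -0.14 to 0.00849 for Tnfrsf9, -0.153 to 0.016 for Tnfsf10, -0.138 to 0.0573 for Tnfsf14 and -0.19 to 0.116 for Tnfsf8. HFSC values ran from -0.109 to 0.0423 for Tnfrsf12a, -0.0861 to 0.166 for Tnfrsf18, -0.765 to 0.435 for Tnfrsf19 and -0.0318 to 0.358 for Tnfrsf21. Exact permutation p ran from 0.0286 to 0.19 for Tnfrsf4, 0.4 to 0.971 for Tnfrsf9 and 0.1 to 1 for Tnfrsf19. The cause of these changes was not tested. The planned edgeR fit was not run, and voom took its place.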
